A study of Mus musculus with 6 samples.

Results

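The dystrophin-glycoprotein complex was examined through 8 of its genes, Dmd, Utrn, Dag1, Sgca, Sgcb, Sgcd, Sspn and Dtna, which were taken by symbol from the table of 49315 genes. Each of the 8 symbols matched 1 row, and all 8 passed the filter on low counts among 15847 genes tested. RNA was sequenced from the gastrocnemius of male C57BL6J mice that had received an adeno-associated virus of serotype AAV9 at 5 months of age, and muscle was taken 5 months later. The AAV9-HSA-CAAHR group received a constitutively active aryl hydrocarbon receptor, that is, mouse AHR without its ligand-binding domain, and the AAV9-HSA-GFP group received green fluorescent protein. In both groups the transgene was driven by the promoter of human skeletal actin (HSA), a gene of muscle fibres, and each group had 3 libraries (CAAHR replicates 31, 34 and 36, GFP replicates 42, 43 and 46). Both groups carried a virus, and uninjected muscle was not analysed here. The paper reports by quantitative PCR that selected immune genes were not lower in CAAHR muscle than in muscle without virus. It attributes their difference between the vectors to a local immune response in GFP muscle. Higher and lower here therefore mean relative to GFP muscle only. The labels did not state that each library came from a different mouse, so p-values measure the spread between these libraries.

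Dystrophin is a long rod-shaped protein under the fibre membrane. It binds cortical actin at one end and beta-dystroglycan at the other, and alpha-dystroglycan, on the outside, binds laminin in the basement membrane. The sarcoglycans and sarcospan form a membrane subcomplex that stabilises this link, whereas dystrobrevins and syntrophins form a cytoplasmic scaffold that recruits signalling proteins such as neuronal nitric oxide synthase. In skeletal muscle the complex protects the membrane during contraction, and loss of dystrophin or of a sarcoglycan causes muscular dystrophy. Utrophin, the paralog of dystrophin, binds many of the same partners and in adult fibres is concentrated at the neuromuscular and myotendinous junctions.

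AHR binds DNA with its partner ARNT at sites around the core GCGTG, so the start-site windows of the members were searched for this core on both strands. RefSeq windows on GRCm38.p6, from 250 bases before to 50 bases after an annotated start, were found for 7 of the 8 members, and the entry for Dtna was missing. The core occurred in a window of 3 members, Dmd, Dag1 and Sgcb. It was not found in those of Utrn, Sgca, Sgcd and Sspn. Of all 32851 windows, 32.4% held it, and over genes 35.2% had at least 1 window with it. Windows are shown for the 2 members that passed the test of expression, Dmd and Sgcb, and for Dag1, which had the most copies and of whose 2 windows 1 is shown. Capitals mark GCGTG or its reverse complement CACGC.
Dmd, upstream start, chrX:82948620-82948919, plus strand: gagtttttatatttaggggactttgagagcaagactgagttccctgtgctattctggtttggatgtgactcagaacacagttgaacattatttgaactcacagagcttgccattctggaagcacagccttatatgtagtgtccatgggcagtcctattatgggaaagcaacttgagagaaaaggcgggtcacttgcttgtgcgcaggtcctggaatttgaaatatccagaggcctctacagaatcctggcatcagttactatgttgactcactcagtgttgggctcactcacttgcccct
Dmd, internal start, chrX:85048045-85048344, plus strand: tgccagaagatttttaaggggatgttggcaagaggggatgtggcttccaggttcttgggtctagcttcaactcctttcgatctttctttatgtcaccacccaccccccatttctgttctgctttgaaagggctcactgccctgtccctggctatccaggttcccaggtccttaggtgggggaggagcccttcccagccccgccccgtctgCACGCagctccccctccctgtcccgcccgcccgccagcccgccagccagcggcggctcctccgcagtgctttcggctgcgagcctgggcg
Sgcb, chr5:73647688-73647987, minus strand: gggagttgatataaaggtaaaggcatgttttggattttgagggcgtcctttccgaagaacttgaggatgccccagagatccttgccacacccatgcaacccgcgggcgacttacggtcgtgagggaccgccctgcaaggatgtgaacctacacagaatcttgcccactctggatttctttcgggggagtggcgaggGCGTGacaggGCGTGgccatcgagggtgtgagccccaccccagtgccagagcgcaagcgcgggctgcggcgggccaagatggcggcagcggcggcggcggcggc
Dag1, chr9:108263766-108264065, minus strand: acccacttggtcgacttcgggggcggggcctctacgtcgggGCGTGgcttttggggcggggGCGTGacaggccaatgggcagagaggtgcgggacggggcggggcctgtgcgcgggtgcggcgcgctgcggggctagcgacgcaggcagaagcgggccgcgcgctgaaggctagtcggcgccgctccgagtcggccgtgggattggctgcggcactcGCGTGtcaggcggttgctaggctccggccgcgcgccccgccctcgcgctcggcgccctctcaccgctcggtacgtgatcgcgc
The upstream Dmd window, at the start of the full-length transcript, held no copy. The internal Dmd window, at which short transcripts of the 3' part of the gene begin, held 1 copy, on the opposite strand. The Sgcb window held 2 copies within a short stretch, beginning 54 and 44 bases before the start, and the Dag1 window held 3. AHR binding was not measured here, and a match is only a description of the letters.

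The delivered gene was checked first. Ahr was at 9.97, 22.8 and 17.3 CPM (reads per 1e6 after TMM scaling, a trimmed-mean correction for library composition) in CAAHR replicates 31, 34 and 36, and at 2.47, 2.55 and 1.87 CPM in GFP replicates 42, 43 and 46. Library totals ranged from 43432994 to 58825752 counts. The labelled tissue was checked with 12 genes of skeletal muscle fibres, whose summed level was 148010 to 193840 CPM in AAV9-HSA-CAAHR and 227190 to 227870 CPM in AAV9-HSA-GFP muscles. The 9 slow fibre genes, such as Myh7, summed to 2783 CPM in CAAHR replicate 31, 649 in replicate 34 and 2518 in replicate 36, against 228 to 461 CPM in GFP libraries, so CAAHR replicate 34 lay nearer to the GFP libraries than to the other CAAHR libraries. The 8 B and plasma cell genes summed to 11.2 to 19.8 CPM against 145 to 579 CPM, and the 8 macrophage genes to 24.1 to 41.7 CPM against 48.8 to 105 CPM. The number of genes that passed was 4 of 12 skeletal muscle fibre genes (all lower), 1 of 9 slow fibre genes (higher; 8 had an unadjusted p under 0.05), 5 of 8 B and plasma cell genes (lower) and 0 of 8 macrophage genes, of which 6 had an unadjusted p under 0.05. Over all genes tested, 3781 of 15847 had an unadjusted p under 0.05 in the same edgeR fit. All 9 slow fibre genes had log2 fold changes above 0, with a median of 2.56. The 12 skeletal muscle fibre genes went both ways, 4 above 0 and 8 below, with a median of -0.38. None of the genes of these lists was at 0 in every library. The summed levels of these 4 lists did not overlap between groups, and their part in the results below was not tested. A fit with the slow-fibre level of each library (mean log2 CPM of the 9 genes) as a covariate was run. This level was 7.49, 5.39 and 7.39 in CAAHR replicates 31, 34 and 36. In GFP replicates 42, 43 and 46 it was 3.83, 4.30 and 4.83. It went with group, so the fit cannot separate slow-fibre level from the vector. Calls lost or kept in it decide nothing about either. The sums of the 6 lists for regenerating fibre, smooth muscle and pericyte, endothelial cell, Schwann cell, fibroblast and adipocyte overlapped between groups. Of their genes, 3 of 8 adipocyte genes and 1 of 10 smooth muscle and pericyte genes passed, all lower, and 0 of the other lists by edgeR (1 to 2 per list at an unadjusted p under 0.05). Fabp4 made up most of the adipocyte sum, at 104 and 106 CPM in CAAHR and GFP muscles, while 7 of the 8 adipocyte genes had log2 fold changes below 0 (list median -2.04), as did all 8 Schwann cell genes (median -0.74). With the covariate 0 of the 8 members passed by edgeR, and 3 had an unadjusted p under 0.05; the share of all genes that passed in that fit was 2.75%, against 7.60% without it. In bulk muscle, fewer cells of a type and less RNA per cell cannot be told apart.

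Of the 8 members, 2 passed the test and both were higher in AAV9-HSA-CAAHR muscles: Dmd, which encodes dystrophin, by 1.37-fold, and Sgcb, which encodes beta-sarcoglycan, by 1.30-fold. To pass, a gene needed an adjusted p under 0.05 (edgeR, quasi-likelihood F test, adjustment by Benjamini and Hochberg over all genes tested), and 7.60% of genes did, 3.04% higher and 4.57% lower. The other 6 members did not pass. The log2 fold change was above 0 for 6 members and below 0 for 2, with a median of 0.32 over the members and 0.01 over all genes tested. Values did not overlap between groups for 4 members, Dmd, Dag1, Sgcb and Sgcd, each with its 3 CAAHR libraries above its 3 GFP libraries. This was so for 15.0% of all genes tested, and for 14.9% the 3 CAAHR libraries were below. No change of a member reached 2-fold.

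**Figure D1:**
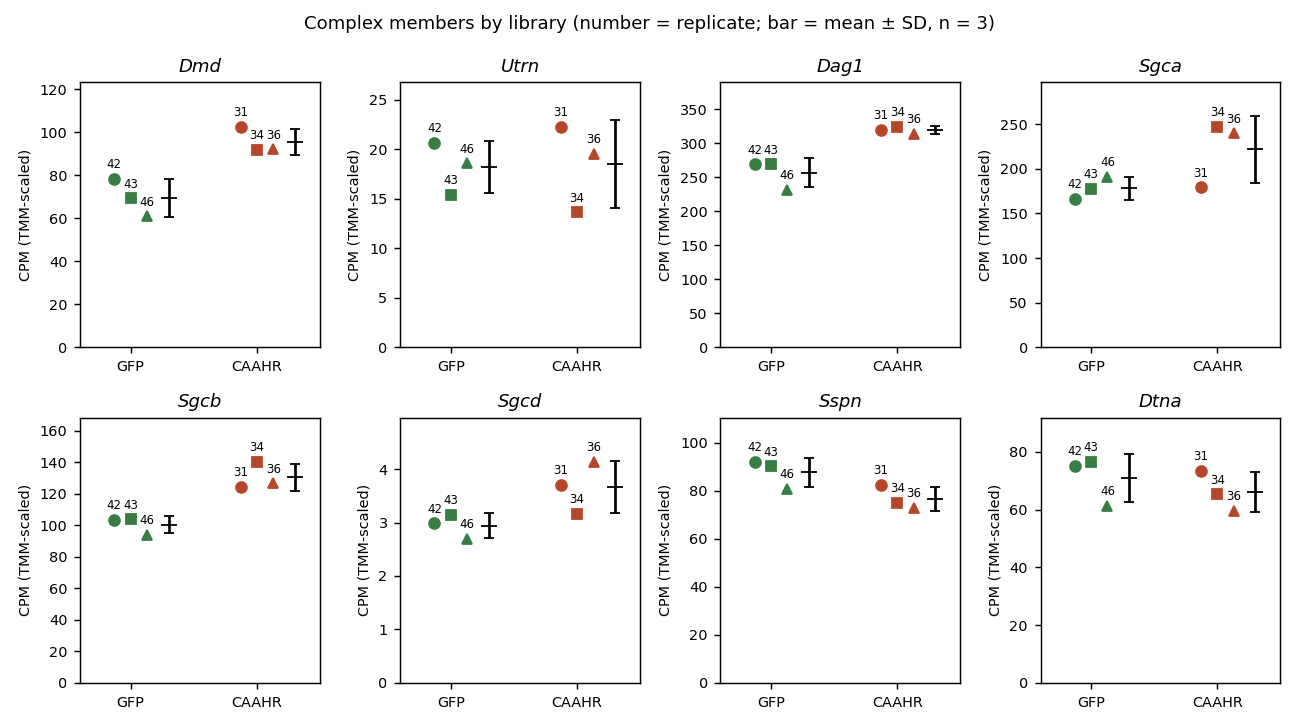
TMM-scaled CPM of the 8 members in each of the 6 libraries, with the replicate number beside each point and bars for mean ± SD (n = 3). The CAAHR points lie above all GFP points for Dmd, Dag1, Sgcb and Sgcd and mix with them for Utrn, Sgca, Sspn and Dtna.

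Dystrophin and its paralog came first. Dmd (ENSMUSG00000045103, chromosome X, 82948870 to 85206141, plus strand, GRCm38) was at 103, 91.9 and 92.0 CPM in CAAHR replicates 31, 34 and 36 and at 78.4, 69.2 and 60.9 CPM in GFP replicates 42, 43 and 46. The lowest CAAHR library was above the highest GFP library. The means were 95.5 ± 6.15 CPM (SD, n = 3) and 69.5 ± 8.79 CPM, a log2 fold change of 0.46 ± 0.11 (SE, 95% interval 0.21 to 0.71; adjusted p of 0.0385 by edgeR). The counts are summed over all transcripts of the gene, so full-length and short dystrophin transcripts cannot be told apart. The call was lost with upper quartile scaling (log2 fold change 0.39, adjusted p 0.0635 by edgeR), with the slow-fibre covariate (0.51, adjusted p 0.244 by edgeR) and without CAAHR replicate 31, CAAHR replicate 36, GFP replicate 43 or GFP replicate 46, with log2 fold changes from 0.37 to 0.56 over the 6 fits that each left out 1 library.

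Utrn (ENSMUSG00000019820, chromosome 10, 12382188 to 12869365, minus strand) was at 22.3, 13.6 and 19.6 CPM in CAAHR replicates 31, 34 and 36 and at 20.6, 15.4 and 18.6 CPM in GFP replicates 42, 43 and 46. The groups overlapped, and both the highest and the lowest value belonged to CAAHR libraries. Its change of 0.02 ± 0.18 on the log2 scale had a 95% interval from -0.40 to 0.44 (adjusted p of 0.964 by edgeR), and its sign changed under 5 of 15 alternatives, among them upper quartile scaling.

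Per kilobase of exon, Utrn was at 30.2%, 20.6% and 29.6% of the level of Dmd in CAAHR replicates 31, 34 and 36 and at 36.6%, 30.96% and 42.4% in GFP replicates 42, 43 and 46. Each CAAHR library had a lower ratio than each GFP library, but CAAHR replicate 31 and GFP replicate 43 were nearly equal. The means were 26.8% ± 5.37 (SD, n = 3) and 36.7% ± 5.73, a difference of -0.46 on the log2 scale. This difference is not separate from the log2 fold changes given above, 0.46 for Dmd and 0.02 for Utrn. The exact two-sided permutation test gave p = 0.1, which is the smallest value that 3 libraries against 3 can give. The difference ranged from -0.58 to -0.28 with 1 library left out.

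**Figure D2:**
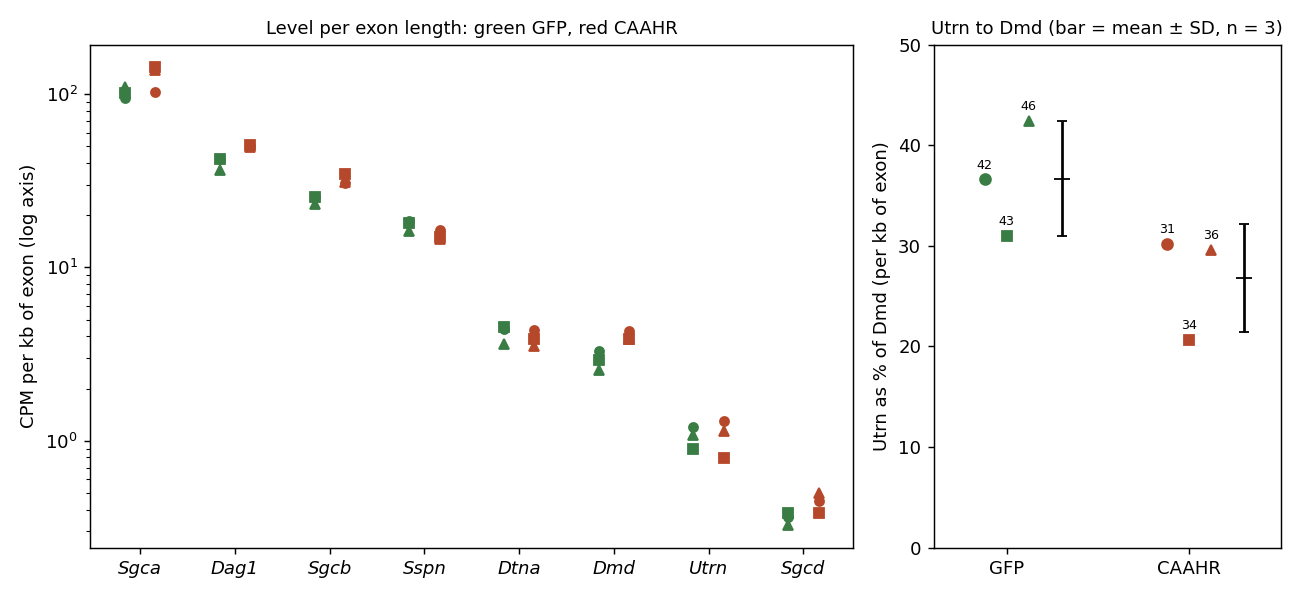
Left, level of each member in CPM per kilobase of exon (log axis), with green points for GFP and red for CAAHR libraries (circle, square and triangle for replicates 42, 43 and 46, and 31, 34 and 36). Right, Utrn as a percent of Dmd per kilobase of exon, with mean ± SD (n = 3): the CAAHR libraries lie at 20.6% to 30.2% and the GFP libraries at 30.96% to 42.4%.

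Dag1 (ENSMUSG00000039952, chromosome 9, 108204634 to 108263958, minus strand) encodes both subunits of dystroglycan, the transmembrane receptor that joins dystrophin to laminin. It was at 319.6, 325 and 314 CPM in CAAHR replicates 31, 34 and 36 and at 269, 269 and 232 CPM in GFP replicates 42, 43 and 46. The CAAHR libraries lay close together and above the GFP libraries. The means were 319 ± 5.57 and 257 ± 21.5 CPM (SD, n = 3). The log2 fold change of 0.32 ± 0.10 (95% interval 0.08 to 0.55) did not pass over all genes (adjusted p of 0.0960 by edgeR). It passed with library size only (log2 fold change 0.40, adjusted p 0.0417 by edgeR) and with the DESeq2 Wald test (log2 fold change 0.32, adjusted p 0.0416).

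The sarcoglycan genes among the members were Sgcb, Sgca and Sgcd, and all 3 had log2 fold changes above 0. Sgcb (ENSMUSG00000029156, chromosome 5, 73632749 to 73647790, minus strand) encodes beta-sarcoglycan, which forms the core of the subcomplex with delta-sarcoglycan. It was at 124, 140.1 and 126 CPM in CAAHR replicates 31, 34 and 36 and at 103, 104 and 93.9 CPM in GFP replicates 42, 43 and 46. All CAAHR libraries were above all GFP libraries, with means of 130.3 ± 8.57 and 100.3 ± 5.53 CPM (SD, n = 3). This gave a log2 fold change of 0.38 ± 0.10 (95% interval 0.16 to 0.59; adjusted p of 0.0456 by edgeR). This call was lost whichever of the 6 libraries was left out (log2 fold changes from 0.31 to 0.41), with upper quartile scaling, with the slow-fibre covariate (log2 fold change 0.59, adjusted p 0.0757 by edgeR) and with a minimum of 10 counts in every library.

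Sgca (ENSMUSG00000001508, chromosome 11, 94962791 to 94976327, minus strand) encodes alpha-sarcoglycan, a subunit found mainly in striated muscle. It was at 179, 247 and 239.6 CPM in CAAHR replicates 31, 34 and 36 and at 166, 177 and 191 CPM in GFP replicates 42, 43 and 46. CAAHR replicate 31 lay within the GFP range and the other CAAHR libraries above it. This was a log2 fold change of 0.32 ± 0.13 (95% interval 0.02 to 0.62; adjusted p of 0.188 by edgeR). Sgcd (ENSMUSG00000020354, chromosome 11, 46896253 to 47988969, minus strand), for delta-sarcoglycan, was at 3.70, 3.17 and 4.13 CPM in CAAHR replicates 31, 34 and 36. It was at 2.98, 3.15 and 2.70 CPM in GFP replicates 42, 43 and 46. The groups did not overlap, but CAAHR replicate 34 and GFP replicate 43 were nearly equal. Its log2 fold change was 0.32 ± 0.17 (95% interval -0.06 to 0.69; adjusted p of 0.284 by edgeR), from 131 to 252 counts per library, the fewest of any member.

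Sspn (ENSMUSG00000030255, chromosome 6, 145931641 to 145965223, plus strand) encodes sarcospan, the small membrane protein bound to the sarcoglycans. It was at 82.4, 75.1 and 72.8 CPM in CAAHR replicates 31, 34 and 36 and at 92.1, 90.2 and 80.8 CPM in GFP replicates 42, 43 and 46. CAAHR replicate 31 was above GFP replicate 46 and the rest of the CAAHR libraries were below all GFP libraries. The log2 fold change was -0.19 ± 0.10 (95% interval -0.41 to 0.03; adjusted p of 0.266 by edgeR). Dtna (ENSMUSG00000024302, chromosome 18, 23415135 to 23659715, plus strand) encodes alpha-dystrobrevin, which binds dystrophin and the syntrophins in the cytoplasm. It was at 73.4, 65.3 and 59.6 CPM in CAAHR replicates 31, 34 and 36 and at 75.1, 76.5 and 61.3 CPM in GFP replicates 42, 43 and 46, and the groups overlapped. With a log2 fold change of -0.10 ± 0.12 (95% interval -0.37 to 0.16; adjusted p of 0.663 by edgeR), it did not pass. Each of these genes overlaps an antisense transcript over a short stretch of exon, 69 bases (1.38% of exon bases) for Sspn and 90 bases (0.53%) for Dtna. The antisense transcript at Sspn had a mean count of 1.5, against 4228.5 for Sspn. The one at Dtna had no count value.

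**Figure D3:**
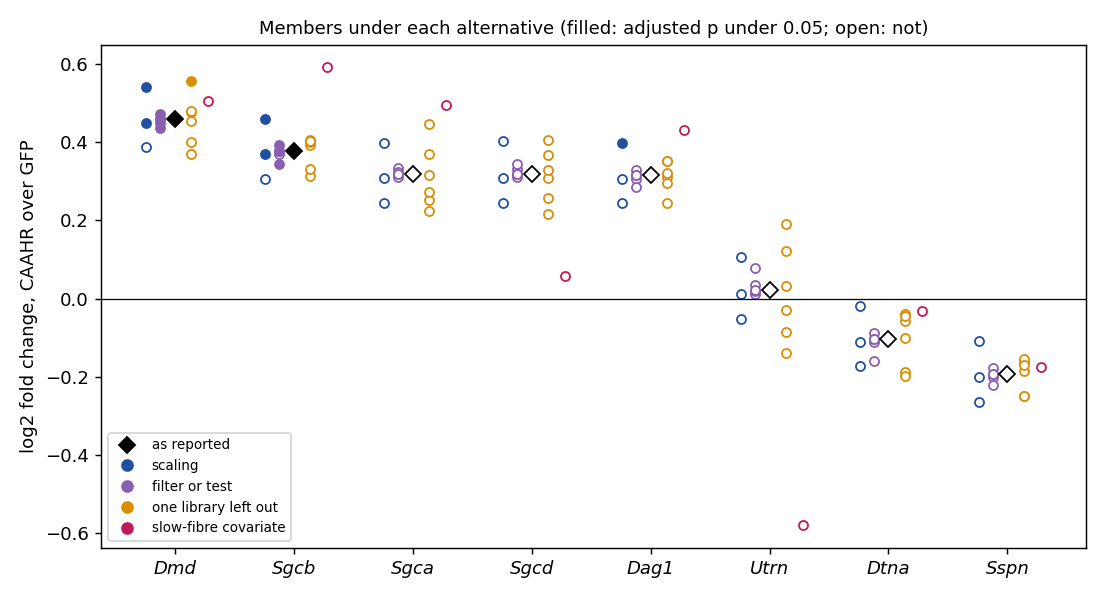
Log2 fold change of the 8 members (CAAHR over GFP) as reported (diamonds) and under 15 alternatives (circles coloured by kind), filled where the adjusted p was under 0.05. Direction was kept for 7 members, while Utrn lay on both sides of 0, and the Sgcb call was open in all 6 fits that left out 1 library.

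The members differed widely in level. Per kilobase of exon, and over both groups, the order was Sgca, Dag1, Sgcb, Sspn, Dtna, Dmd, Utrn and Sgcd. Sgca was at 128 ± 21.5 CPM per kb in CAAHR and 103 ± 7.18 CPM per kb in GFP muscles, Dag1 at 50.2 ± 0.877 and 40.4 ± 3.39 CPM per kb, and Sgcb at 32.2 ± 2.11 and 24.7 ± 1.36 CPM per kb (SD, n = 3). Sspn followed at 15.4 ± 0.995 and 17.5 ± 1.21 CPM per kb. The next pair did not differ beyond its spread in CAAHR muscles, with Dtna at 3.91 ± 0.410 and Dmd at 4.01 ± 0.258 CPM per kb, and Dmd was above Dtna in CAAHR replicates 34 and 36. In GFP muscles Dtna was at 4.19 ± 0.495 and Dmd at 2.92 ± 0.369 CPM per kb, with Dtna above Dmd in each library. Utrn was at 1.08 ± 0.259 and 1.06 ± 0.154 CPM per kb and Sgcd at 0.444 ± 0.0586 and 0.357 ± 0.0275 CPM per kb. Lengths were those of all annotated exons merged (23801 bases for Dmd and 1735 for Sgca), which lowers the level of genes with many alternative exons. With the longest transcript as length, Dtna was above Dmd in both groups, at 10.5 against 6.40 CPM per kb in CAAHR and 11.3 against 4.66 CPM per kb in GFP muscles, and the rest of the order was the same.

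The 3 genes whose values over the 6 libraries lay nearest to those of Dmd were Socs6, Mga and Sec31b, at root-mean-square distances of 0.0285, 0.0315 and 0.0426 between centred log2 CPM. The nearest to Sgcb were Pnisr, Rab11fip2 and Clcn4, at 0.0245, 0.0295 and 0.0360. Among the other members Dag1 was nearest to both, at 0.106 from Dmd and 0.0585 from Sgcb, and Sspn and Utrn were the farthest from Dmd, at 0.332 and 0.320. Over all tested genes, however, Dag1 was only at rank 174 from Dmd and rank 47 from Sgcb, so many genes outside the complex lay nearer. These distances include the difference between groups and rest on 6 libraries, and they are given as a description.

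The other subunits of the complex were described with 10 genes, of which 7 were tested and 2 passed, both lower. Sntb1 encodes beta-1-syntrophin, an adaptor that binds dystrophin family proteins. It was at 0.870, 0.613 and 0.804 CPM in CAAHR replicates 31, 34 and 36 and at 2.55, 4.54 and 2.78 CPM in GFP replicates 42, 43 and 46. All CAAHR libraries lay below all GFP libraries. Beta-1-syntrophin RNA thus had a log2 fold change of -2.10 ± 0.28 (95% interval -2.73 to -1.48; adjusted p of 0.00256 by edgeR), from 35 to 189 counts per library, and the call held under all 15 alternatives. Dtnb, for beta-dystrobrevin, a paralog of Dtna known mainly from tissues other than skeletal muscle, was at 1.31, 1.80 and 1.67 CPM in CAAHR replicates 31, 34 and 36 and at 3.61, 3.68 and 3.25 CPM in GFP replicates 42, 43 and 46. The CAAHR libraries were again all below the GFP libraries. Its log2 fold change was -1.13 ± 0.19 (95% interval -1.56 to -0.71; adjusted p of 0.00745 by edgeR), and the call was lost only with the slow-fibre covariate (log2 fold change -0.80, adjusted p of 0.274 by edgeR). Both genes are at the low end of the complex, at 0.380 CPM per kb for Sntb1 and 0.266 CPM per kb for Dtnb over the 6 libraries. The summed levels of the B and plasma cell and the macrophage genes were also lower in the CAAHR libraries. The adipocyte and Schwann cell lists had negative median log2 fold changes, while their sums overlapped between groups. The part of these lists in the changes of Sntb1 and Dtnb was not tested.

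Of the other tested subunits, 3 are described here and did not pass. Nos1, for neuronal nitric oxide synthase, which the syntrophins hold at the membrane, was at 93.0, 94.3 and 100.5 CPM in CAAHR replicates 31, 34 and 36 and at 95.5, 94.9 and 89.7 CPM in GFP replicates 42, 43 and 46, with a log2 fold change of 0.04 ± 0.09 (95% interval -0.16 to 0.24). Sntb2, for beta-2-syntrophin, had a log2 fold change of -0.31 ± 0.14 and Sgce, for epsilon-sarcoglycan, one of -0.24 ± 0.14. The 3 subunits that were not tested were too low. Sgcz, for zeta-sarcoglycan, had 0 or 1 count per library, Sntg1 0 to 5 counts and Sntg2 5 to 15 counts, the last 2 encoding gamma-syntrophins.

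**Figure D4:**
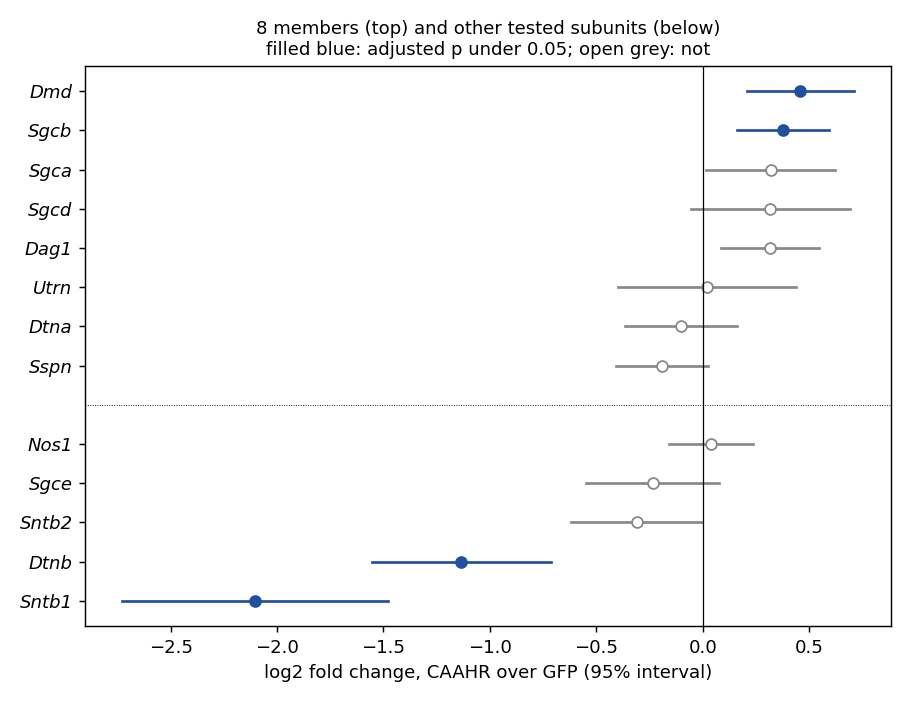
Log2 fold change (CAAHR over GFP, points) with 95% intervals (lines) for the 8 members above and 5 other tested subunits of the complex below, filled blue where the adjusted p was under 0.05. Dmd and Sgcb lie above 0 and Dtnb and Sntb1 below it, at -1.13 and -2.10.

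Beyond the subunits, 4 lists of genes around the complex were described, namely its matrix ligands, the enzymes that glycosylate dystroglycan, the costamere with its integrins, and sarcolemma repair. Together with the other subunits these held 65 genes, of which 61 were tested and 8 passed (13.1%), 4 higher and 4 lower, with a median log2 fold change of 0.02 over the 61 genes. Over all genes tested 7.60% passed and the median was 0.01. With the slow-fibre covariate, under which 2.75% of all genes passed, 4 of the 8 kept their call, namely Sntb1, Itga7, Sync and Cavin4.

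Among 10 matrix ligands 1 passed. Hspg2, for perlecan, a basement membrane proteoglycan that binds alpha-dystroglycan, was at 181, 169 and 202 CPM in CAAHR replicates 31, 34 and 36 and at 129, 110 and 139 CPM in GFP replicates 42, 43 and 46, without overlap. Perlecan RNA had a log2 fold change of 0.55 ± 0.12 (adjusted p of 0.0247 by edgeR). The call was lost with the slow-fibre covariate (log2 fold change 0.32, adjusted p of 0.430 by edgeR). It was also lost without CAAHR replicate 31, CAAHR replicate 36, GFP replicate 42 or GFP replicate 43. Over the 6 fits that each left out 1 library, log2 fold changes lay from 0.46 to 0.62. Lama2, for the laminin chain that alpha-dystroglycan binds in muscle, was at 28.6 ± 3.43 CPM in CAAHR and 30.1 ± 1.84 CPM in GFP muscles (SD, n = 3), with a log2 fold change of -0.07 ± 0.11. Of 17 enzymes of dystroglycan glycosylation 0 passed by edgeR, and 0 had an unadjusted p under 0.05. Their log2 fold changes lay between -0.25 and 0.28, with a median of 0.08. B3galnt2, for a glycosyltransferase that builds the laminin-binding glycan of alpha-dystroglycan, had the highest level of this list, at 103 ± 11.0 and 109 ± 10.9 CPM.

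The 17 costamere and integrin genes held the largest higher change of the related lists. Itga7 encodes integrin alpha-7, which forms with integrin beta-1 the other main laminin receptor of muscle fibres. It was at 212, 292 and 285 CPM in CAAHR replicates 31, 34 and 36 and at 84.4, 86.2 and 92.9 CPM in GFP replicates 42, 43 and 46. The lowest CAAHR library was far above the highest GFP library. The log2 fold change was 1.58 ± 0.13 (95% interval 1.28 to 1.88; adjusted p of 0.000341 by edgeR), and the call held under all 15 alternatives. Itgb1, its partner, had a log2 fold change of -0.08 ± 0.12 (adjusted p of 0.751 by edgeR). Sync, for syncoilin, an intermediate filament protein that binds alpha-dystrobrevin, was at 42.8, 49.9 and 44.5 CPM in CAAHR replicates 31, 34 and 36 and at 35.7, 33.2 and 28.3 CPM in GFP replicates 42, 43 and 46. Syncoilin RNA had a log2 fold change of 0.50 ± 0.11 (adjusted p of 0.0275 by edgeR), and the call was lost without CAAHR replicate 36, GFP replicate 43 or GFP replicate 46. Actg1, for cytoplasmic gamma-actin, the actin that dystrophin binds at the membrane, was lower, at 76.4, 90.4 and 76.9 CPM against 149, 173 and 143 CPM in the same order of libraries. Its log2 fold change was -0.93 ± 0.11 (adjusted p of 0.00179 by edgeR), and the call was lost only with the slow-fibre covariate (log2 fold change -0.67, adjusted p of 0.0940 by edgeR). Gamma-actin is expressed in most cell types, and the B cell and macrophage sums given above were also lower in the CAAHR libraries. The adipocyte and Schwann cell lists had negative median log2 fold changes, while their sums overlapped between groups. The part of these lists was not tested.

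Of 11 sarcolemma repair genes 10 were tested and 2 passed. Cavin4, for a caveolar coat protein of muscle, was at 255, 326 and 279.8 CPM in CAAHR replicates 31, 34 and 36 and at 138, 128 and 109.6 CPM in GFP replicates 42, 43 and 46. The CAAHR libraries were all above the GFP libraries, and the log2 fold change was 1.19 ± 0.13 (adjusted p of 0.00106 by edgeR), or 2.29-fold, with the call kept under all 15 alternatives. Anxa6, for a calcium-dependent membrane-binding annexin of the repair cap, was lower, at 184, 179 and 179 CPM against 225, 235 and 260.0 CPM in the same order. Its log2 fold change was -0.41 ± 0.10 (adjusted p of 0.0353 by edgeR), and it kept its call in 1 of the 6 fits that left out 1 library and lost it with library size only (log2 fold change -0.33, adjusted p of 0.0651 by edgeR) and with the slow-fibre covariate (log2 fold change -0.51, adjusted p of 0.150 by edgeR). Dysf, for dysferlin, and Cav3, for caveolin-3, did not pass, with log2 fold changes of -0.0046 ± 0.10 and 0.17 ± 0.11.

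**Figure D5:**
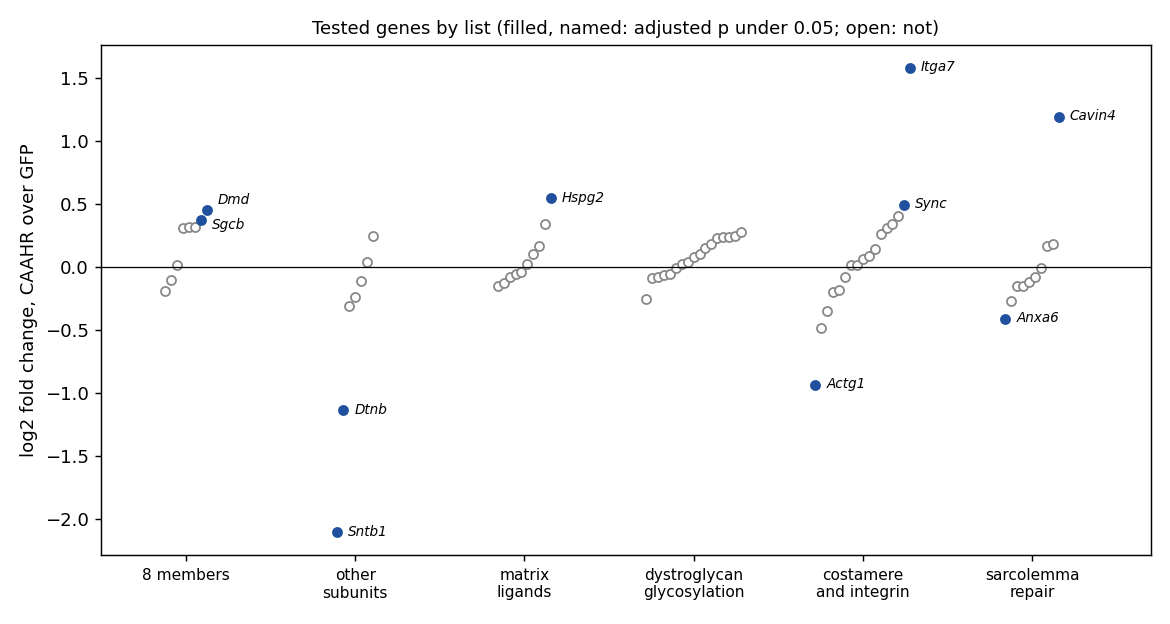
Log2 fold change (CAAHR over GFP) of each tested gene in the 8 members and 5 lists of related genes, ordered by value within a list. Filled and named points had an adjusted p under 0.05: Itga7 at 1.58 and Cavin4 at 1.19 lie farthest above 0, and Sntb1 at -2.10 farthest below.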

How the data were processed

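The authors selected poly(A) RNA, sequenced paired ends, trimmed reads with Trimmomatic 0.36, aligned them to GRCm38 with STAR 2.5.2b and summed unique reads in exons by gene with featureCounts. The deposited values were these whole-number counts, neither normalised nor pooled. Whether libraries were stranded was not given in the sources used here. The analysis used edgeR 4.0.16 in R 4.3.3 (filterByExpr, TMM scaling, robust quasi-likelihood F test, Benjamini-Hochberg adjustment over 15847 genes, threshold 0.05), all 6 libraries being in the fit. Standard errors came from the F statistic and intervals are 95%. No library repeated another of its group (the smallest chi-square divided by its degrees of freedom was 23.8). GENCODE M21, on GRCm38, gave positions and exon lengths. Listed symbols absent from the table were matched by an older symbol, such as Rxylt1 as Tmem5. Some listed genes are counted but not reported by name here. Genes named were the 8 members, the other subunits reported, related genes that passed, the most abundant glycosylation enzyme, and the 3 genes nearest to Dmd and Sgcb by centred log2 CPM (prior count 2). Lama2, Itgb1, Dysf and Cav3 were named after their values were seen. Members and lists were chosen with earlier results of these data known. The calculations were tested on simulated data. Alternatives were scaling, count filters, DESeq2 1.42.0, limma-voom (limma 3.58.1), edgeR without robust estimation, a slow-fibre covariate and leaving out each library.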

Additional observations from a re-analysis of the deposited data

How the results depend on the processing

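No paired analysis was possible because replicate numbers differed between the groups. Of the 8 members 2 passed as reported, against 0 by edgeR with upper quartile scaling and with the slow-fibre covariate (4 and 3 at an unadjusted p under 0.05) and 1 with at least 10 counts in every library. With library size only and with the DESeq2 Wald test 3 passed, Dag1 being added. The number stayed at 2 with DESeq2 size factors, no filter on low counts, limma-voom and edgeR without robust estimation. It was 0 to 1 with 1 library left out: Dmd alone passed without CAAHR replicate 34 or GFP replicate 42, and no member passed by edgeR when any one of the other 4 libraries was left out (3 to 5 at an unadjusted p under 0.05). Over all genes, the share that passed was 7.60% as reported, 8.51% with upper quartile scaling, 2.75% with the slow-fibre covariate, 7.14% with at least 10 counts in every library, and 3.28% (without CAAHR replicate 36) to 10.7% (without CAAHR replicate 34) with 1 library left out. This share was 9.31% with library size only, 10.4% with the DESeq2 Wald test and 7.72% to 8.85% in the settings that kept 2 members. As reported, 4 members and 3781 of the 15847 genes tested had an unadjusted p under 0.05 by edgeR. The matching number over all genes was not taken for the other fits. The median log2 fold change of the members stayed between 0.23 and 0.40 under all 15 alternatives. Of the related genes 8 passed, against 5 with the slow-fibre covariate (4 of them shared) and 5 to 12 with 1 library left out, with 5 without CAAHR replicate 36 or GFP replicate 43. Utrn reversed to -0.052 with upper quartile scaling, to -0.58 with the slow-fibre covariate, and to -0.14 to -0.03 without CAAHR replicate 31, CAAHR replicate 36 or GFP replicate 43, over a range of -0.14 to 0.19 with 1 library left out. The Utrn to Dmd ratio kept its direction with the longest transcript as length (-0.46), which shifts all libraries alike, and with 1 library left out (-0.58 to -0.28). Of 240 checks of 16 genes (the 8 members and the 8 related genes that passed), 201 kept direction and side of the threshold, 32 lost the call, 2 gained it and 5 reversed. For members that did not pass, keeping the side meant still not passing. Of 15 alternatives each, Dmd kept its call in 9 and Sgcb in 6. The causes were not tested. The slow-fibre level went with group, so the fit with this covariate cannot separate it from the vector. Depth limits Sgcd most among the members, at 131 to 252 counts per library.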
